A study of Mus musculus with 18 samples.

Results

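The step from 5 h to 12 h of tunicamycin was measured in mouse melanoma cells in which doxycycline had switched on LIP, the short product of the C/EBPβ gene (Cebpb). Gene expression in 3 cultures with doxycycline and tunicamycin for 12 h was compared with that in 3 cultures with doxycycline and tunicamycin for 5 h, over 19938 genes. These are 6 of the 18 one-colour arrays of the series, picked by their sample titles. The line is B16 F10.9-4, grown from the pigmented B16 melanoma of the mouse. The other 12 arrays hold 3 cultures each with tunicamycin alone for 12 h, tunicamycin alone for 5 h, doxycycline alone at 0 h, and vehicle. All 6 groups carry the same cell line. The series design describes 3 independent experiments that each held every group, and the replicate numbers in the titles were taken as the numbers of those experiments. Doxycycline came before tunicamycin, so that all 6 compared cultures had LIP switched on when the drug was added. Because no array of doxycycline-treated cells lacking the inducible gene and no untreated array at 5 or 12 h was used, effects of LIP and of doxycycline cannot be told apart, nor can hours of drug and hours in culture.

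Tunicamycin blocks the first step in building the sugar chain that is attached to asparagine in secreted and membrane proteins. Proteins without that chain misfold in the endoplasmic reticulum (ER), and 3 sensors in the ER membrane start the unfolded protein response: IRE1 (gene Ern1), which splices Xbp1 mRNA, ATF6, which is cut and released from the membrane, and PERK (gene Eif2ak3), which slows translation and favours translation of Atf4. The factors XBP1, ATF6 and ATF4 then raise the transcription of genes for folding, degradation and transport of proteins and for amino acid supply, and ATF4 raises CHOP (gene Ddit3). LIP keeps the DNA-binding and dimerization parts of C/EBPβ but lacks most of its activating part, and it can pair with CHOP, ATF4 and other basic leucine zipper proteins.

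The deposited values are log2 intensities, on which a difference of 1 is a 2-fold change, and every level below is such a value. Pearson correlation across genes lay between 0.995 and 0.997 within the 2 compared groups and between 0.990 and 0.993 across them, so no array stood apart. All 10 markers of melanocytes lay above the 95th percentile of 1194 odorant and pheromone receptor genes, which stand in here for silent genes, whereas 2 of 7 leukocyte, 2 of 8 endothelial and 2 of 6 epithelial markers did. Among fibroblast markers Dcn and Lum lay below it, and the other 4 of 6 lay above it, with log2 changes from -0.17 (Pdgfra) to 0.20 (Col1a1). The part of such cells in the results was not tested. In bulk RNA, fewer cells of a kind and less RNA per cell cannot be told apart. In what follows a gene rose or fell where limma, a linear model fitted to all 18 arrays, gave a Benjamini-Hochberg adjusted p under 0.05.

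Between 5 h and 12 h with doxycycline 2167 genes rose and 3079 fell, which is 10.9% and 15.4% of the 19938 genes, or 26.3% together. The median change of all genes was -0.02, and the median size of change among the 5246 genes that passed was 0.31. At least 2-fold changes were fewer and mostly upward: 138 genes rose and 25 fell by that much (0.818% of genes). Of the 5246 genes, 5173 had the same sign in every experiment. Leaving out experiment 3 took the count to 3333. Setting the array medians equal changed the split to 2453 higher and 2403 lower, so that the larger number of falls depends on that scaling.

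The 2 largest log2 changes, of 3.34 each, were those of Ero1b and Ogn. Ero1b is an ER oxidase that supplies disulfide bonds to isomerases. Its level was 10.34, 10.52 and 10.62 at 12 h, against 7.04, 7.12 and 7.30 at 5 h, a 10.1-fold difference (log2 change 3.34 ± 0.0943 SE, limma adjusted p = 3.4e-14). Ogn, which encodes the matrix proteoglycan osteoglycin, was at 8.75, 8.52 and 8.88 at 12 h, against 5.32, 5.28 and 5.53 at 5 h. The 5 h levels of Ogn lay below the 95th percentile of the receptor genes (6.07), so its 12 h mean can only be called at least 6.24-fold higher, taken against that percentile. Nucb2, encoding the calcium-binding nucleobindin 2, rose 7.03-fold to 11.10, 11.08 and 11.21 at 12 h, against 8.44, 8.11 and 8.39 at 5 h. Hey2, a transcriptional repressor of the Notch pathway, had a measured change of 2.45, but its 5 h mean of 5.92 also lay below that percentile, so that it was at least 4.93-fold higher. Zfp57, a zinc finger protein that maintains imprints, rose by 2.30. The stress factor Nupr1 rose by 2.29, the coat protein gene Sec24d by 2.24, the ATP-gated channel gene P2rx3 by 2.14, the eIF2 phosphatase subunit gene Ppp1r15a by 2.05 and the ER prolyl isomerase gene Fkbp11 by 2.01. Zfp9 and Cyb5r2 rose by 1.93 and 1.92. In each of these 12 genes the lowest 12 h array lay above the highest 5 h array. Over all genes 6985 (35%) had groups that did not overlap. Most genes named here and below were picked for large changes, so separate groups in them add no further support.

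The largest fall was that of Ccn2, connective tissue growth factor, a secreted matrix-associated protein. Its level was 9.97, 10.32 and 10.07 at 12 h, against 11.84, 11.66 and 11.48 at 5 h (log2 change -1.53 ± 0.0909 SE, limma adjusted p = 2.92e-10). Mc1r, the receptor for melanocyte-stimulating hormone, was at 8.65, 8.99 and 8.77 at 12 h, against 10.30, 10.21 and 10.23 at 5 h, a log2 change of -1.45. The groups did not overlap in either gene. Falls between -1.42 and -1.13 were found for the clock-linked repressor gene Bhlhe40 (-1.42), Kank4 (-1.29), the cholesterol enzyme gene Hsd17b7 (-1.27), the cyclic AMP sensor gene Rapgef3 (-1.25), the semaphorin co-receptor gene Plxna4 (-1.24), the melanosome linker gene Mlph (-1.20), the angiopoietin gene Angpt2 (-1.20), the intermediate filament gene Nes (-1.18), the transcription inhibitor gene Id1 (-1.17) and the galactosyltransferase gene B4galt5 (-1.13). Nes had the widest spread among 12 h arrays of these, with 9.25, 9.80 and 9.56 at 12 h, against 10.81, 10.61 and 10.74 at 5 h, and even there the groups stayed apart.

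**Figure D1:**
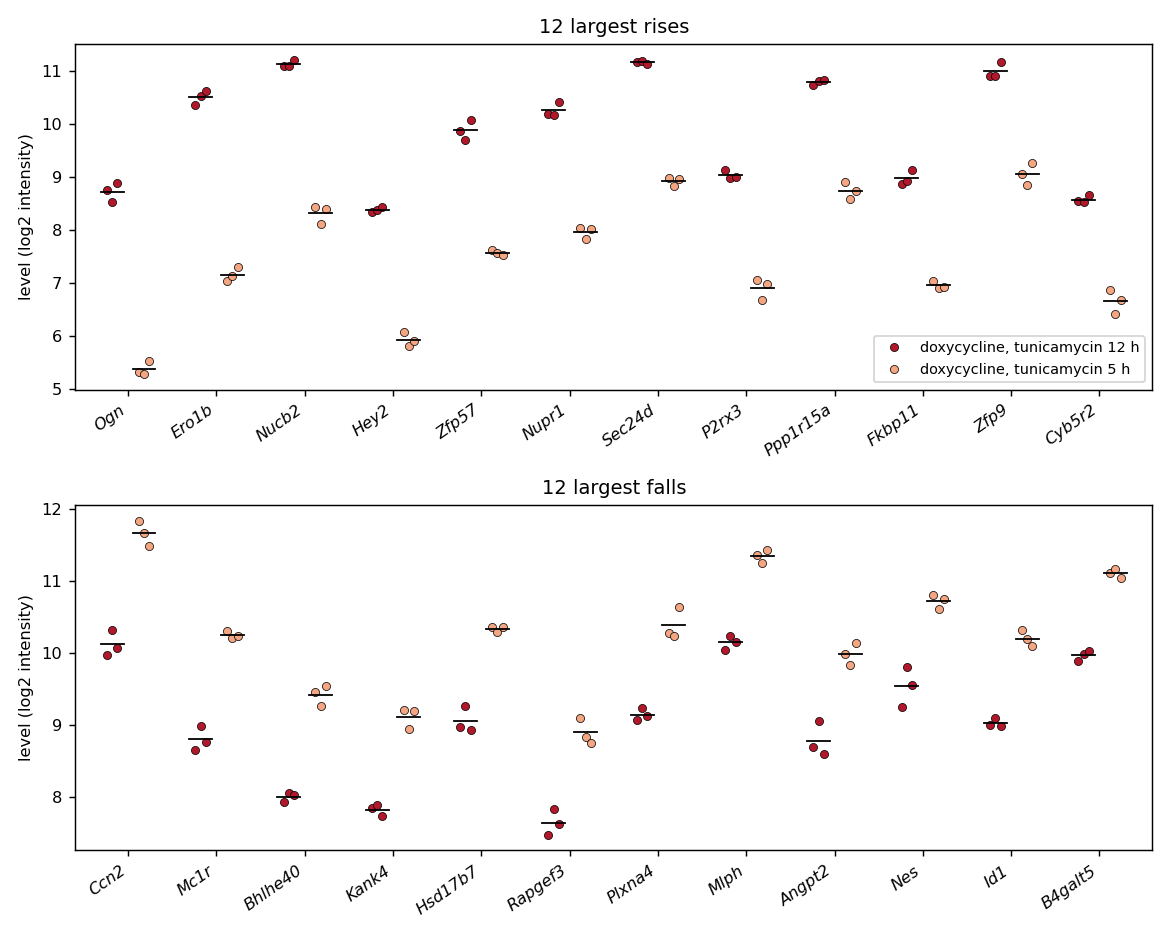
Level (log2 intensity, y axis) of the 12 genes with the largest rise (top) and the 12 with the largest fall (bottom) in single arrays, with doxycycline and tunicamycin for 12 h (dark points, left of each pair) and 5 h (light points), and the mean of 3 arrays as a bar. The 24 genes were picked for large changes with the same sign in every experiment, so separate groups follow largely from that choice. The 2 groups of 3 arrays do not overlap in any of them. Over all genes 35% had groups that did not overlap.

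Some of the genes that rose stood near their 0 h level at 5 h. Ero1b averaged 7.07 with doxycycline alone, so it differed from that level by 0.08 at 5 h (adjusted p = 0.74 in limma). Nucb2 averaged 8.13 and Nupr1 7.80 with doxycycline alone, and at 5 h they differed from it by 0.19 and 0.16 (adjusted p = 0.23 and 0.31 in limma). Other genes had already risen at 5 h: Ddit3 (CHOP) by 1.32, the cystine carrier gene Slc7a11 by 1.24 and the pseudokinase gene Trib3 by 0.83 above doxycycline alone. Still others that rose after 5 h had stood lower at 5 h than with doxycycline alone, among them Ccng2 (-0.91) and Klhl24 (-0.88). Some of the genes that fell after 5 h stood higher at 5 h than with doxycycline alone, among them Id1 by 1.59, Ccn2 by 1.55, Plxna4 by 0.99 and Bhlhe40 by 0.71. Ccn2 at 12 h was back near its mean of 10.11 with doxycycline alone, and Id1 had averaged 8.61 there. These steps share the 5 h arrays with the main comparison, so each is given as its own value.

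Of the 18 measured sensors and transcription factors of the response, 13 rose (72.2%) and 1 fell (5.56%), with a median change of 0.47. Over all genes, for this list and those below, 10.9% rose and 15.4% fell. Ddit3, which encodes CHOP, had levels of 11.32, 11.38 and 11.28 at 12 h, against 9.67, 9.60 and 9.82 at 5 h (log2 change 1.64 ± 0.0836 SE, limma adjusted p = 3.74e-11). The sensor gene Atf6 was at 11.76, 11.84 and 11.87 at 12 h, against 10.63, 10.64 and 10.69 at 5 h, a rise of 1.17. Groups did not overlap in either. The PERK gene Eif2ak3 rose by 0.89, Atf5 by 0.95, Xbp1 by 0.79, Atf3 by 0.63, Atf4 by 0.51 and the IRE1 gene Ern1 by 0.44. Nfe2l1, which drives proteasome genes, rose by 0.42. Cebpd, a relative of Cebpb, fell by 0.33. The Cebpb probe set itself, which cannot separate LIP from the longer C/EBPβ proteins, was at 11.51, 11.47 and 11.58 at 12 h, against 11.31, 11.36 and 11.32 at 5 h. That change of 0.19 missed the threshold (limma adjusted p = 0.0558) although the groups did not overlap, and 4 of the alternative settings took it past, with adjusted p between 0.0253 and 0.0432.

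ER chaperones moved together. Of 26 measured chaperones and co-chaperones 21 rose (80.8%) and 0 fell, with a median of 0.58, against -0.02 for all genes. The 5 that did not pass had changes from -0.13 to 0.18. The chaperone BiP, gene Hspa5, was at 13.63, 13.50 and 13.62 at 12 h, against 12.84, 12.83 and 12.88 at 5 h (log2 change 0.74 ± 0.0499 SE, limma adjusted p = 1.7e-09). Creld2, a small ER stress protein, was at 13.11, 13.01 and 13.08 at 12 h, against 11.39, 11.33 and 11.29 at 5 h, a rise of 1.73. The BiP co-chaperone gene Dnajb9 was at 12.65, 12.48 and 12.55 at 12 h, against 10.62, 10.59 and 10.81 at 5 h, a rise of 1.88. None of the 3 overlapped between groups. Hyou1, a nucleotide exchange factor for BiP, rose by 1.65, Sdf2l1 by 1.62, Dnajc3 by 1.35, Manf by 1.09, Hsp90b1 by 0.77, and the lectin chaperone genes Calr and Canx by 0.59 and 0.19.

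Among 25 disulfide isomerases and oxidases 11 rose (44%) and 0 fell, with a median of 0.15. Besides Ero1b, its relative Ero1a rose by 0.74. The isomerase gene Pdia6 was at 12.46, 12.43 and 12.47 at 12 h, against 11.13, 11.03 and 11.10 at 5 h, a rise of 1.36, and Pdia5 rose by 1.43, Txndc11 by 1.04, Pdia4 by 0.89 and Erp44 by 0.86. The 14 others, among them the tissue-restricted Agr2 and Pdia2, had changes between -0.12 and 0.15.

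Promoters are shown for some of the genes that rose together, because the response is known to act through short DNA elements. Windows of 300 bases (250 before and 50 after the start of the gene, RefSeq, build GRCm38.p6) were searched on both strands for the ER stress response element ERSE (CCAAT and CCACG with 9 bases between them), at which ATF6 and XBP1 act with NF-Y. It lay in 35 of 27025 promoters (0.13%). Sequences run 5′ to 3′ on the strand of the gene, with ERSE in capitals. In Creld2 and Ero1b the element lies on the other strand and so reads reversed. Creld2 and Alg12 are neighbours in opposite directions, so that their lines show the same bases and 1 shared element.
Hspa5 (chr2:34771995-34772073, plus strand): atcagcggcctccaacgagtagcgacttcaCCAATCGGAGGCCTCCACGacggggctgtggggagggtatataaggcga
Creld2 (chr15:88819490-88819568, plus strand): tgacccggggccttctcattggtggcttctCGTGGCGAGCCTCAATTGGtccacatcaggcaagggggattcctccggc
Alg12 (chr15:88819490-88819568, minus strand): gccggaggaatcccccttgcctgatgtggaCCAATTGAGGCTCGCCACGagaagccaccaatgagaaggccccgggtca
Pdia6 (chr12:17266461-17266539, plus strand): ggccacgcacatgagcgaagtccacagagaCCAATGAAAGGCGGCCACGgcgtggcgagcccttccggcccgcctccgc
Syvn1 (chr19:6046502-6046575, plus strand): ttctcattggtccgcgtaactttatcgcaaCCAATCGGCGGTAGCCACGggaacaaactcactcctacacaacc
Ero1b (chr13:12565652-12565730, plus strand): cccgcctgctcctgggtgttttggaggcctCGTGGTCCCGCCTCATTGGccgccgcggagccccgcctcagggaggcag

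ERSE was found before 20 of the 15563 tested genes with a promoter, and 11 of these 20 rose (55%), against 11.5% of all genes with a promoter, while 2 fell. The 11 were Ero1b, Creld2, Syvn1, Alg12, Pdia6, Dnajc3, Hsp90b1, Hspa5, Calr, Pan2 and Canx, and their changes ran from 0.19 in Canx to 3.34 in Ero1b. The 2 that fell were Calr4 (-0.60) and Adcy3 (-0.37). Among chaperone genes 6 of 23 promoters held the element (26.1%). A match describes only the letters of the window and is not evidence of binding.

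**Figure D2:**
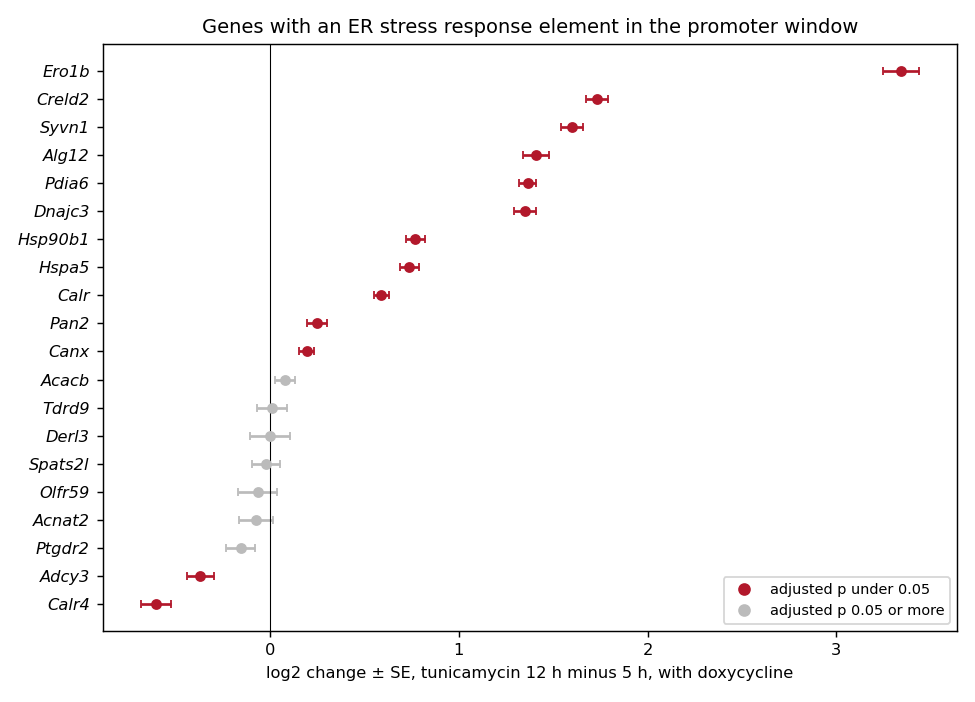
Log2 change from 5 h to 12 h of tunicamycin with doxycycline (x axis, ± SE from limma) for the 20 tested genes with an ERSE in the promoter window (rows). Of the 20, 11 rose, 2 fell and 7 did not pass the threshold (grey).

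The core of another element, UPRE (TGACGTGG, both strands), at which XBP1 and ATF6 bind, lay in 164 of 27025 promoters (0.607%). It is shown, in capitals, for a coat gene and a retrieval receptor gene that were among the largest rises in transport. In Kdelr3 it lies on the other strand.
Sec24d (chr3:123267440-123267495, plus strand): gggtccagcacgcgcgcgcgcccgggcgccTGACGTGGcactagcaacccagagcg
Kdelr3 (chr15:79516348-79516407, plus strand): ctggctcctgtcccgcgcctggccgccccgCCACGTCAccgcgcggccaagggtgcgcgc
Of 117 tested genes with this core 37 rose (31.6%) and 10 fell (8.55%), against 11.5% and 16.0% of all genes with a promoter. Their median change was 0.01. The core overlapped an ERSE in 2 promoters.

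Many genes for removal of misfolded protein, sugar chain synthesis and transport rose alongside the chaperone genes. The processes themselves were not measured. Of 37 genes of ER-associated degradation 23 rose (62.2%) and 2 fell (5.41%), with a median of 0.33. The ubiquitin ligase gene Syvn1 was at 11.56, 11.62 and 11.67 at 12 h, against 9.98, 9.94 and 10.13 at 5 h, a rise of 1.60. Herpud1, a membrane partner of that ligase, was at 12.73, 12.71 and 12.73 at 12 h, against 11.09, 11.00 and 11.18 at 5 h, a rise of 1.64. The ER membrane protein gene Wfs1 rose by 1.80, Selenos by 1.43 and the ligase partner gene Sel1l by 1.41, whereas Erlin2 fell by 0.30 and Fbxo2 by 0.29.

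In the N-glycosylation and hexosamine pathway, the one tunicamycin blocks, 25 of 44 genes rose (56.8%) and 4 fell (9.09%), with a median of 0.21. Dpagt1, the enzyme that tunicamycin inhibits, rose by 0.83. The mannosyltransferase gene Alg12 was at 11.91, 12.09 and 12.17 at 12 h, against 10.58, 10.58 and 10.79 at 5 h, a rise of 1.41. The hexosamine enzymes that make the sugar donor rose as well, Pgm3 by 1.32, Uap1 by 1.16, Gfpt1 by 1.13 and Gnpnat1 by 0.90. The Gfpt1 relative Gfpt2 fell by 0.34, and Mpdu1, needed for use of mannose donors, fell by 0.44.

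Of the translocon and the vesicle coats, 49 of 58 measured genes rose (84.5%) and 2 fell (3.45%), with a median of 0.51. Sec24d, which picks cargo for vesicles leaving the ER, was at 11.16, 11.18 and 11.13 at 12 h, against 8.97, 8.83 and 8.96 at 5 h (log2 change 2.24 ± 0.0614 SE, limma adjusted p = 3.4e-14). Other large rises were those of Arfgap3 (1.57), Kdelr3 (1.50), the fusion proteins Bet1 (1.40) and Stx5a (1.40), and the cargo receptor subunit Mcfd2 (1.08). The signal recognition receptor genes Srpr and Srprb rose by 0.67 and 0.68, the signal peptidase subunit genes Spcs2 and Spcs3 by 0.76 and 0.78, and the coat genes Sec23a and Copb1 by 0.88 and 0.61. Tram2 fell by 0.65 and Sec24b by 0.29.

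Of 20 measured targets of PERK, ATF4 and CHOP 14 rose (70%) and 1 fell (5%), with a median of 0.51. Ppp1r15a, whose product GADD34 reverses the phosphorylation of eIF2α, was at 10.72, 10.81 and 10.82 at 12 h, against 8.89, 8.59 and 8.73 at 5 h (log2 change 2.05 ± 0.066 SE, limma adjusted p = 1.46e-13). Nupr1 was at 10.19, 10.16 and 10.41 at 12 h, against 8.04, 7.83 and 8.01 at 5 h. Trib3, an inhibitor of AKT and of ATF4, was at 10.24, 10.43 and 10.43 at 12 h, against 8.86, 8.61 and 8.91 at 5 h, a rise of 1.57. In all 3 genes the groups stayed apart. Vegfa rose by 0.87, Chac1, which degrades glutathione, by 0.62, and Ddit4 by 0.32. Trib1 fell by 0.36. Bbc3, Tnfrsf10b, Fgf21, Adm2 and Stc2 did not pass, with changes between -0.14 and 0.08.

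Genes of amino acid supply rose with them. Of 26 genes of synthesis and transport 20 rose (76.9%) and 2 fell (7.69%), with a median of 0.43. Of 18 cytosolic aminoacyl-tRNA synthetases 11 rose (61.1%) and 0 fell (median 0.38). Slc7a11, the cystine-glutamate exchanger, was at 10.90, 10.81 and 10.90 at 12 h, against 9.37, 9.34 and 9.42 at 5 h, a rise of 1.49. Cth, which makes cysteine, rose by 1.37, the mitochondrial folate enzyme gene Aldh1l2 by 1.25, the carrier genes Slc1a4 and Slc6a9 by 1.20 and 1.10, and the asparagine synthetase gene Asns by 0.35. Shmt1 and Mthfd1l fell by 0.48 and 0.41. Among synthetases the rises ran from 0.28 (Farsb) to 0.88 (Wars). Of 32 genes of translation initiation and eIF2 control 9 rose (28.1%) and 4 fell (12.5%), against 10.9% and 15.4% of all genes, with a median of -0.01. Of the 9 that rose, 2 were Ppp1r15a and Eif2ak3.

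The C/EBP-ATF element (TGATGNAAN, both strands), at which dimers of ATF4 or CHOP with C/EBP proteins bind, lay in 1091 of 27025 promoters (4.04%). It is printed, in capitals, for genes above that rose and hold it close to their start. Slc7a11 has the element once on each strand, and the other 3 have it on the strand opposite to the gene.
Slc7a11 (chr3:50443623-50443709, minus strand): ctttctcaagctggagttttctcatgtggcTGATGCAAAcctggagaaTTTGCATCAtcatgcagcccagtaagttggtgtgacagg
Nupr1 (chr7:126625543-126625611, minus strand): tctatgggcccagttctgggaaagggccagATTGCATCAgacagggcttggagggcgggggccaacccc
Herpud1 (chr8:94386286-94386354, plus strand): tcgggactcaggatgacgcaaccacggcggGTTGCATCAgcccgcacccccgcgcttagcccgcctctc
Atf3 (chr1:191183406-191183474, minus strand): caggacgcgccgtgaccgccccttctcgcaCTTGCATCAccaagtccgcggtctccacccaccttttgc
Of 490 tested genes with this element 64 rose (13.1%) and 37 fell, against 11.5% and 16.0% of all genes with a promoter. It lay in 4 of 11 synthetase promoters (36.4%) and in 4 of 17 promoters of the PERK targets (23.5%).

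Autophagy genes rose in part, 17 of 35 (48.6%) with 3 lower (8.57%) and a median of 0.18. Over all genes, for this list and the next 2, 10.9% rose and 15.4% fell. Atg13, a regulator of the initiating kinase, rose by 1.46, with separate groups at 11.24, 11.09 and 11.27 at 12 h, against 9.75, 9.65 and 9.83 at 5 h. The receptors Nbr1 and Sqstm1 rose by 0.79 and 0.31, and Map1lc3b fell by 0.14. Among 28 targets of p53 and genes of growth restraint 10 rose (35.7%) and 6 fell (21.4%), with a median of 0.09. The atypical cyclin gene Ccng2 rose by 1.07, Gadd45a by 1.04 and Btg1 by 0.87, whereas Gadd45g and Gadd45b fell by 0.69 and 0.64. Ccng2 differed from doxycycline alone by -0.91 at 5 h and by 0.17 at 12 h (limma adjusted p = 3.61e-07 and 0.125). The cell death list had 5 of 28 higher (17.9%) and 9 lower (32.1%), with a median of -0.02. Casp4, the mouse caspase-11 gene, rose by 1.30 and Cflar, an inhibitor of caspase-8, by 0.81. The survival gene Bcl2l1 fell by 0.66 and the BH3 gene Bcl2l11 by 0.44, and neither Bbc3 (0.07) nor Bcl2 (-0.08) passed.

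Of 25 genes of zinc transport 9 rose (36%) and 3 fell (12.0%), against 10.9% and 15.4% of all genes (median -0.05). Slc39a7, which releases zinc from the ER, rose by 0.82 and Slc30a5, which loads zinc into the secretory pathway, by 0.72. The 3 that fell were the zinc-induced genes Slc30a1, Mt1 and Mt2, which fell by 0.83, 0.70 and 0.67.

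**Figure D3:**
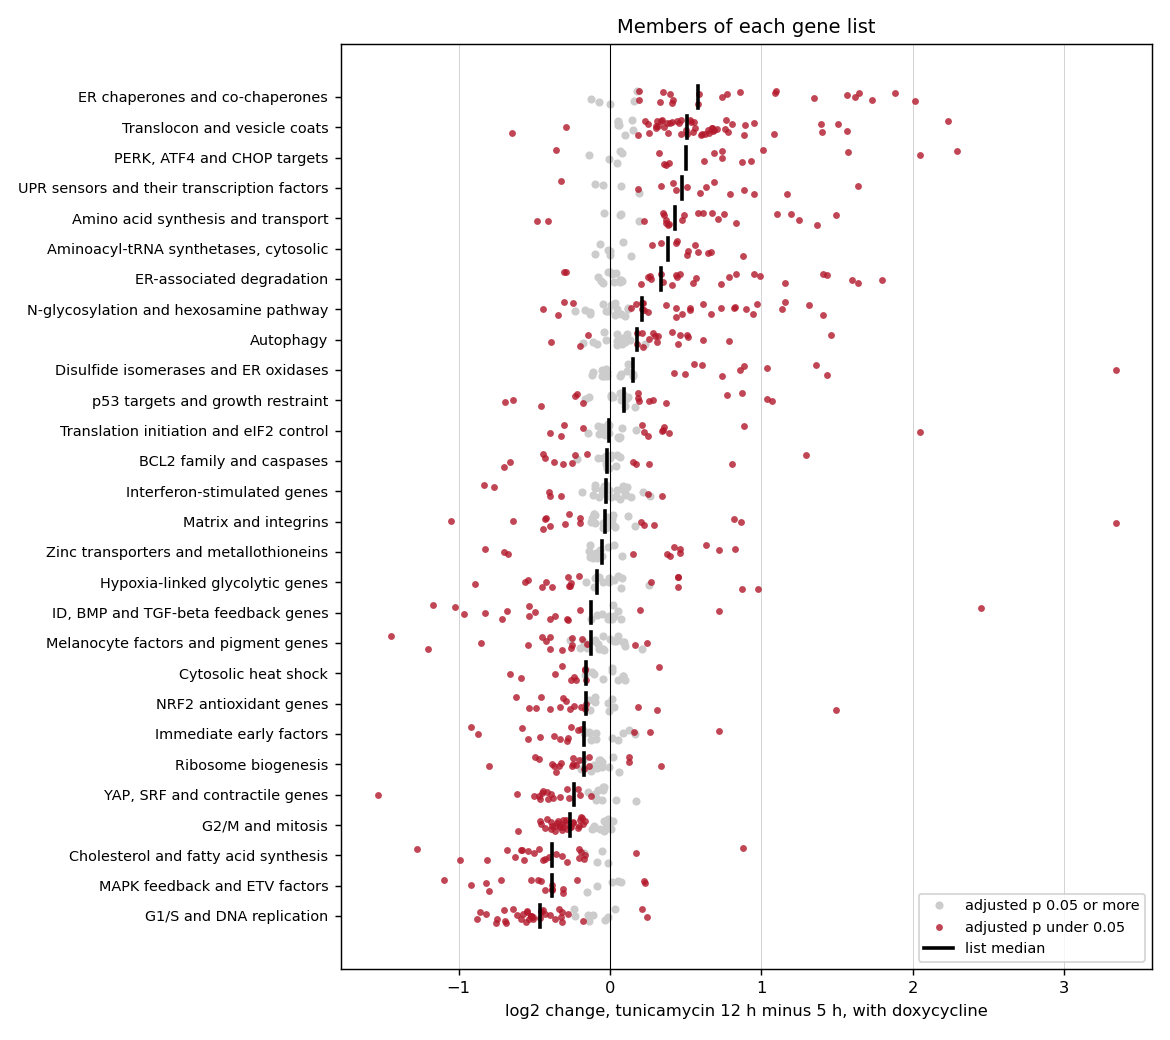
Log2 change from 5 h to 12 h of tunicamycin with doxycycline (x axis) for every measured member (points) of 28 gene lists (rows, sorted by median). Dark points passed the threshold, and bars mark list medians, from 0.58 in ER chaperones to -0.46 in replication genes.

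Genes of DNA replication fell. Of 44 measured genes of the G1/S transition and replication 34 fell (77.3%) and 2 rose (4.55%), with a median of -0.46. Orc1, the largest subunit of the origin recognition complex, was at 7.18, 7.07 and 7.27 at 12 h, against 8.16, 8.03 and 7.97 at 5 h (log2 change -0.88 ± 0.0928 SE, limma adjusted p = 6.04e-07). Tk1, thymidine kinase, was at 10.09, 10.37 and 10.15 at 12 h, against 11.00, 11.07 and 11.12 at 5 h, a change of -0.86. The groups of both genes were separate. Uhrf1, which maintains DNA methylation, fell by 0.82, the helicase subunit gene Mcm3 by 0.75, the cyclin genes Ccnd1 and Ccne2 by 0.69 and 0.64, and E2f2 by 0.69. The 2 that rose were Cdc45 (0.25) and Cdc6 (0.21).

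Genes of mitosis fell by less: 32 of 44 fell (72.7%) and 0 rose, with a median of -0.26. The 12 that did not pass included Cdc20, Top2a and Ube2c (-0.03, -0.04 and -0.04). Ccnf, cyclin F, was at 9.56, 9.45 and 9.59 at 12 h, against 10.34, 10.08 and 10.01 at 5 h (log2 change -0.61 ± 0.0749 SE, limma adjusted p = 4.13e-06). Ccna2 was at 11.96, 11.96 and 11.93 at 12 h, against 12.37, 12.38 and 12.38 at 5 h, a change of -0.43. The groups did not overlap in either gene, but the 5 h arrays of Ccnf spread more widely (SD 0.176) than those of Ccna2 (SD 0.008). The phosphatase gene Cdc25b and the checkpoint gene Bub1b each fell by 0.46, and Cdk1 and Plk1 by 0.35 and 0.36.

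Elements known from cell cycle promoters are printed, in capitals, for a gene of each list: the E2F site (TTTCGCGC, both strands, 86 of 27025 promoters or 0.318%) in Orc1, and the cell cycle genes homology region CHR (TTTGAA, both strands, 4893 promoters or 18.1%) in Ccnf, which holds it at 2 places.
Orc1 (chr4:108579397-108579453, plus strand): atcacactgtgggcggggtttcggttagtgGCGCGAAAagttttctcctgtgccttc
Ccnf (chr17:24251410-24251569, minus strand): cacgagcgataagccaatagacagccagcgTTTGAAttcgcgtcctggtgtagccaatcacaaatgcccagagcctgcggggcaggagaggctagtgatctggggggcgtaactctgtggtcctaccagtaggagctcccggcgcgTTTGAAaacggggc
CHR lay in 27 of 37 promoters of the mitosis list (73.0%), against 15.2% of all tested genes with a promoter. Over all 2358 tested genes with CHR, however, 12.7% fell, against 16.0% of all. Of 67 tested genes with the E2F site 24 fell (35.8%) and 6 rose, and it lay in 13.9% of 36 promoters of the replication list.

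Genes of sterol and fatty acid synthesis fell as well, 22 of 28 (78.6%) with 2 higher (7.14%) and a median of -0.38. Hsd17b7, an enzyme of late cholesterol synthesis, was at 8.98, 9.26 and 8.94 at 12 h, against 10.36, 10.28 and 10.36 at 5 h (log2 change -1.27 ± 0.0887 SE, limma adjusted p = 2.46e-09). The fatty acid elongase gene Elovl6 fell by 0.99, the isomerase gene Idi1 by 0.81, Insig1 by 0.68, Fasn by 0.63 and the regulator gene Srebf2 by 0.59. Against these, Mvd, of the mevalonate pathway, rose by 0.88 and Ebp by 0.17. A sterol element (TCACNCCAC, both strands) lay in 330 of 27025 promoters (1.22%). Of 180 tested genes with it 21 rose (11.7%) and 20 fell (11.1%), against 11.5% and 16.0% of all genes with a promoter.

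Of 22 genes of MAPK feedback and ETV factors 15 fell (68.2%) and 2 rose (9.09%), with a median of -0.38. Over all genes, for each list here, 15.4% fell and 10.9% rose. Spry4, an inhibitor of the MAPK pathway, was at 7.43, 7.93 and 7.66 at 12 h, against 9.02, 8.68 and 8.59 at 5 h. The phosphatase genes Dusp4 and Dusp6 fell by 0.92 and 0.80 and the factor gene Etv5 by 0.82. Of 27 immediate early factors 12 fell (44.4%) and 3 rose (11.1%, near the share over all genes), with a median of -0.17. Changes were -0.92 in Myc, -0.87 in Fos and -0.58 in Maff, while Nr4a2 rose by 0.72. In the list of ID, BMP and TGF-β genes 14 of 29 fell (48.3%), with a median of -0.12, and 3 rose (10.3%, near the share over all genes). Id1 was at 9.01, 9.10 and 8.99 at 12 h, against 10.31, 10.19 and 10.09 at 5 h (log2 change -1.17 ± 0.076 SE, limma adjusted p = 9.98e-10). Id3 fell by 1.03, the inhibitory Smad gene Smad6 by 0.96 and Id2 by 0.83, against a rise of Tgif1 by 0.72 beside that of Hey2.

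Of 28 genes linked to YAP, SRF and contraction 17 fell (60.7%) and 0 rose (median -0.24), led by Ccn2. Changes were -0.61 in Tead4, and -0.50 and -0.47 in the focal adhesion genes Vcl and Actn1. The YAP target Ccn1 did not pass (-0.14). In the list of matrix genes and integrins 6 of 39 rose (15.4%) and 10 fell (25.6%), with a median of -0.03. Over all genes 10.9% rose and 15.4% fell. Besides Ogn, the fibronectin receptor gene Itga5 rose by 0.87 and the laminin gene Lama4 by 0.82, while the secreted thrombospondin gene Thbs1 fell by 1.05 and Itgb3 by 0.64.

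Pigment cell genes fell in part, 14 of 36 (38.9%) with 2 higher (5.56%) and a median of -0.13. Over all genes 15.4% fell and 10.9% rose. Besides Mc1r, Mlph was at 10.05, 10.24 and 10.15 at 12 h, against 11.36, 11.25 and 11.43 at 5 h. The receptor gene Met fell by 0.86, the lineage factor genes Sox10, Tfap2a and Mitf by 0.54, 0.45 and 0.26, and Pmel, the fibril protein of melanosomes, by 0.32. The melanin enzyme genes Tyr, Tyrp1 and Dct did not pass (0.21, 0.02 and -0.10).

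Ribosome biogenesis had 3 of 31 genes higher (9.68%) and 16 lower (51.6%), against 10.9% and 15.4% of all genes. Its median was -0.17, and the falls were led by Grwd1 at -0.80 and the RNA polymerase I subunit Polr1b at -0.47. Cytosolic heat shock had 1 of 22 higher (4.55%) and 10 lower (45.5%, median -0.16), with Hsph1 at -0.66 and Hspb1 at -0.59, and Dnajb4 at 0.32. NRF2 antioxidant genes had 3 of 24 higher (12.5%), 1 of them Slc7a11, and 13 lower (54.2%, median -0.16). Among the latter, Pgd was at -0.62 and Gsr at -0.54. Hypoxia-linked glycolytic genes had 6 of 30 higher (20%) and 11 lower (36.7%), against 10.9% and 15.4% of all genes. Their median was -0.08, with Ndrg1 at 0.98 and Egln3 at -0.89. Interferon-stimulated genes had 2 of 31 higher (6.45%) and 5 lower (16.1%), close to or under the shares over all genes (median -0.03), with Irgm1 at -0.83 and Irf1 at -0.77. Of markers of other cells, 1 of 9 leukocyte genes fell (11.1%, Cd68, -0.34). Of 8 fibroblast genes 1 rose (12.5%, Col1a1, 0.20) and 1 fell (12.5%, Pdgfra, -0.17). These shares were near or under those over all genes, 10.9% higher and 15.4% lower. Both fibroblast calls were near the threshold (limma adjusted p = 0.0426 and 0.0444) and were lost in a fit of only the compared groups (0.0539 and 0.0918). Further, 0 of 8 endothelial and 0 of 8 epithelial genes passed, with Tie1 at -0.12 and Krt8 at -0.18 having the smallest unadjusted p.

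The same step was then measured without doxycycline, on 6 other arrays. There 2264 genes rose and 2719 fell (11.4% and 13.6% of genes, 25% together), although with the array medians set equal 2606 rose and 1868 fell. Across all 19938 genes, which are not independent of each other, the 2 sets of log2 changes had a Pearson r of 0.861. Of the rises with doxycycline 77.3% were also rises without it, and of the rises without it 74.0% were also rises with it. For falls the shares were 67.5% and 76.5%. List medians were 0.58 with and 0.49 without doxycycline for ER chaperones, 0.51 and 0.39 for translocon and coats, 0.47 and 0.74 for sensors and factors, -0.46 and -0.38 for replication genes, and -0.38 and -0.24 for sterol genes. These similarities hold for the step and do not say that the levels matched: Nupr1 reached 10.19, 10.16 and 10.41 at 12 h with doxycycline, against 11.24, 11.17 and 11.19 without, while its steps were 2.29 and 2.33. That level differed by -0.94 (limma adjusted p = 3.34e-07), while the steps did not pass in the test described next (difference -0.04).

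Whether the step differed with doxycycline was tested as an interaction, the step with doxycycline minus the step without it. It passed for 140 genes (0.702%), 42 with a more positive step (0.211%) and 98 with a more negative step (0.492%) with doxycycline. At an unadjusted p under 0.05 there were 1716. With quantile normalization repeated, the split was 88 more positive and 116 more negative. Of the 42, 35 rose with doxycycline, and 16 of these rose without it too, by less. Of the 98, 43 rose in both, by less with doxycycline, 24 rose without it and did not pass with it, and 31 fell with doxycycline. The count fell to 32 without experiment 1, to 91 without experiment 2 and to 28 without experiment 3.

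**Figure D4:**
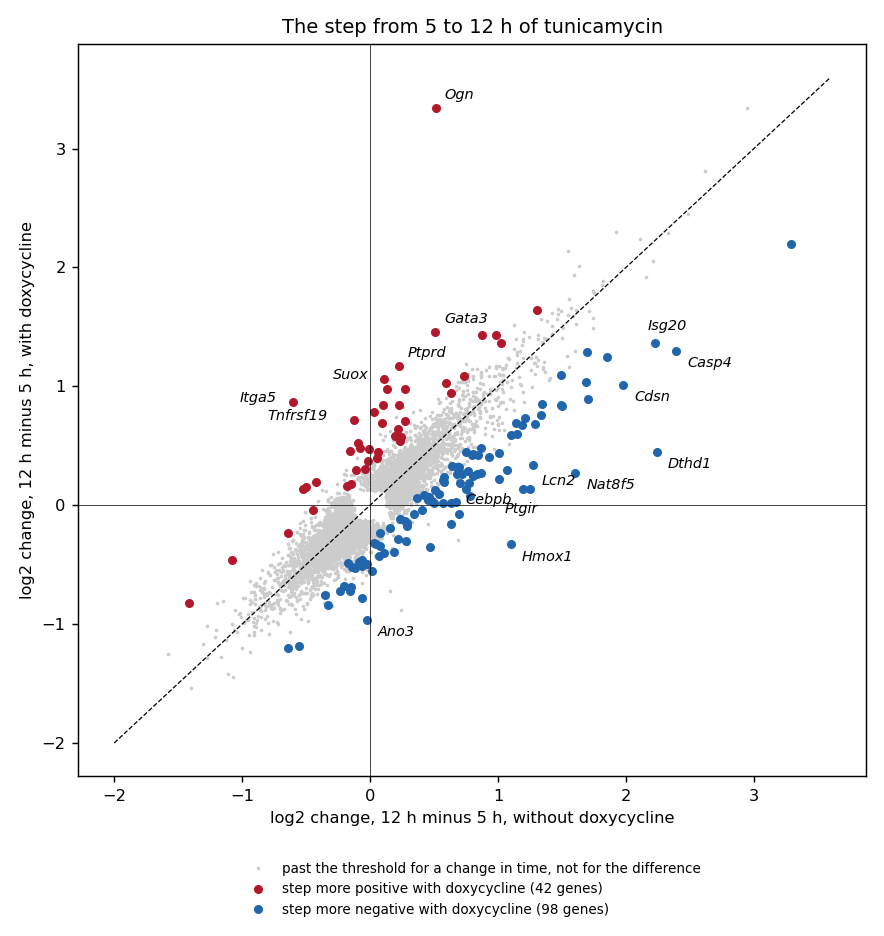
Log2 change from 5 h to 12 h of tunicamycin with doxycycline (y axis) against the same without doxycycline (x axis), 1 point a gene, for genes past the threshold in at least 1 comparison. Dark points above the dashed line of equal change are the 42 genes with a more positive step with doxycycline, and those below it are the 98 with a more negative step.

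Ogn had the largest positive difference, 2.83 ± 0.146 SE (limma adjusted p = 3.39e-09). Against its step of 3.34 with doxycycline, it rose by 0.51 without, to 5.23, 5.39 and 5.37 at 12 h, against 4.93, 4.57 and 4.95 at 5 h, all at the level of silent genes. Itga5 moved in opposite directions. It was at 9.0, 9.08 and 9.08 at 12 h, against 8.21, 8.20 and 8.15 at 5 h with doxycycline, and at 6.0, 6.47 and 6.54 at 12 h, against 6.93, 6.92 and 6.95 at 5 h without it. The difference was 1.47 ± 0.153 SE (limma adjusted p = 2.62e-05), and the 2 kinds of culture were already apart at 5 h.

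Gata3, a lineage transcription factor, was at 8.28, 8.22 and 8.42 at 12 h, against 6.96, 6.81 and 6.79 at 5 h with doxycycline. Without it Gata3 was at 6.94, 7.05 and 6.86 at 12 h, against 6.36, 6.46 and 6.50 at 5 h, and the steps of 1.45 and 0.51 differed by 0.94 ± 0.0961 SE (limma adjusted p = 1.96e-05). Ptprd, a receptor phosphatase, rose by 1.17 with and 0.22 without doxycycline (difference 0.95). Suox, sulfite oxidase, had steps of 1.07 and 0.11 (difference 0.96), and Tnfrsf19, a receptor of the TNF family, of 0.72 and -0.13 (difference 0.85). Cyp4b1 had steps of 0.79 and 0.03, the glutathione transferase gene Gsta3 of 0.85 and 0.10, and Fibin of 0.98 and 0.27. The 5 h mean with doxycycline and both means without it lay below the level of silent genes (6.07) for Cyp4b1 (5.85 at 5 h, and 5.94 and 5.91 without) and Fibin (5.44 at 5 h, and 5.72 and 5.45 without). At 12 h with doxycycline they averaged 6.63 and 6.42, at least 1.47-fold and 1.27-fold above it. In Suox, Tnfrsf19, Cyp4b1 and Gsta3 the step without doxycycline did not pass. Gsta3 belongs to a family of near-identical genes, whose signals the array may not part. Its means without doxycycline, 6.18 at 12 h and 6.08 at 5 h, lay just above the level of silent genes.

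Among genes of the ER, Pdia5 (steps 1.43 and 0.98), Pdia6 (1.36 and 1.02), Mcfd2 (1.08 and 0.73) and Magt1 (0.95 and 0.63) rose more with doxycycline. These differences of 0.45, 0.34, 0.35 and 0.31 were small, and with the array medians set equal the last 3 missed the threshold, as did all 4 in a fit of only the compared groups. The median difference over all 26 ER chaperones was 0.07, and over all genes 0.00.

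In the other direction, the death domain gene Dthd1 was at 5.63, 5.26 and 5.38 at 12 h, against 4.99, 4.85 and 5.10 at 5 h with doxycycline. Without it Dthd1 was at 7.24, 7.34 and 7.26 at 12 h, against 5.14, 5.03 and 4.93 at 5 h, and the difference of steps was -1.80 ± 0.117 SE (limma adjusted p = 9.21e-08). The rise of Dthd1 with doxycycline, 0.45, passed the threshold (limma adjusted p = 0.000379). Both means behind that rise, 5.43 at 12 h and 4.98 at 5 h, lay below the level of silent genes. Hmox1, heme oxygenase 1, was at 8.68, 9.02 and 8.79 at 12 h, against 9.19, 9.21 and 9.09 at 5 h with doxycycline, and at 10.48, 10.57 and 10.51 at 12 h, against 9.48, 9.29 and 9.49 at 5 h without it. Its steps of -0.33 and 1.10 ran in opposite directions and differed by -1.43 ± 0.103 SE (limma adjusted p = 3.04e-07). Without experiment 1, the fall of Hmox1 with doxycycline missed the threshold, but the difference of steps did not.

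Casp4 was at 7.95, 8.11 and 8.33 at 12 h, against 6.73, 6.72 and 7.06 at 5 h with doxycycline, and at 9.21, 9.07 and 9.28 at 12 h, against 6.88, 6.75 and 6.76 at 5 h without it. It rose in both, by 1.30 and 2.39. Isg20, an exonuclease gene, rose by 1.37 and 2.23, and Cdsn, corneodesmosin, by 1.01 and 1.98. The prostacyclin receptor gene Ptgir (steps 0.13 and 1.20) and the iron carrier gene Lcn2 (0.14 and 1.25) rose without doxycycline and did not pass with it, and their differences of -1.06 and -1.12 passed the interaction test. Both means of Lcn2 with doxycycline (6.06 at 12 h, 5.93 at 5 h) lay just below the level of silent genes. The acetyltransferase relatives Nat8f5 (0.27 and 1.61) and Nat8 (0.34 and 1.28), whose sequences are alike, had smaller steps with doxycycline. For Nat8f5 the means with doxycycline, 5.47 at 12 h and 5.20 at 5 h, lay below the level of silent genes, and its step there lost the call with the experiments as a block (limma adjusted p = 0.0555, against 0.0393 without the block). Ano3, a scramblase family gene, was at 8.35, 8.35 and 8.51 at 12 h, against 9.33, 9.26 and 9.51 at 5 h with doxycycline. Without it the step of Ano3 was -0.02 and did not pass, and the difference was -0.94.

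Smaller differences were found in 3 further genes whose steps had opposite signs: the cytokine receptor gene Osmr (-0.35 with and 0.46 without), the kinase subunit gene Pik3r1 (-0.39 and 0.19) and Mfsd9 (-0.30 and 0.28). Without experiment 1 the falls of Osmr and Mfsd9 with doxycycline missed the threshold (limma adjusted p = 0.0582 and 0.0804). The Polycomb gene Cbx7 rose by 0.29 without doxycycline. Its fall of 0.17 with doxycycline (limma adjusted p = 0.0447) was lost in 9 alternatives, with adjusted p of 0.137 with equal array medians and 0.412 without experiment 1. Atm, the DNA damage kinase, had a step of 0.14 with doxycycline that did not pass (limma adjusted p = 0.111) and fell by 0.53 without it, a difference of 0.66. Among pigment genes, Mlph (-1.20 and -0.64) and Pmel (-0.32 and 0.03) had more negative steps with doxycycline, as had Nes (-1.18 and -0.55), Phlda1 (-0.72 and -0.15) and Filip1l (-0.33 and 0.05). Of the stress response, Gadd45a (1.04 and 1.69), Aldh1l2 (1.25 and 1.85) and Nfe2l1 (0.42 and 0.80) rose less with doxycycline. Atf3, with 0.63 and 1.04, did not pass in the interaction (-0.41, limma adjusted p = 0.143).

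Cebpb differed too. Without doxycycline it was at 10.38, 10.23 and 10.28 at 12 h, against 9.47, 9.60 and 9.48 at 5 h, a rise of 0.78, whereas with doxycycline it began at a mean of 11.18 at 0 h. The difference of its steps, -0.59 ± 0.1 SE (limma adjusted p = 0.00621), is on a log scale. It sets a step from a high level against a step from a lower one, and the array does not say how much of each level was the added LIP.

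**Figure D5:**
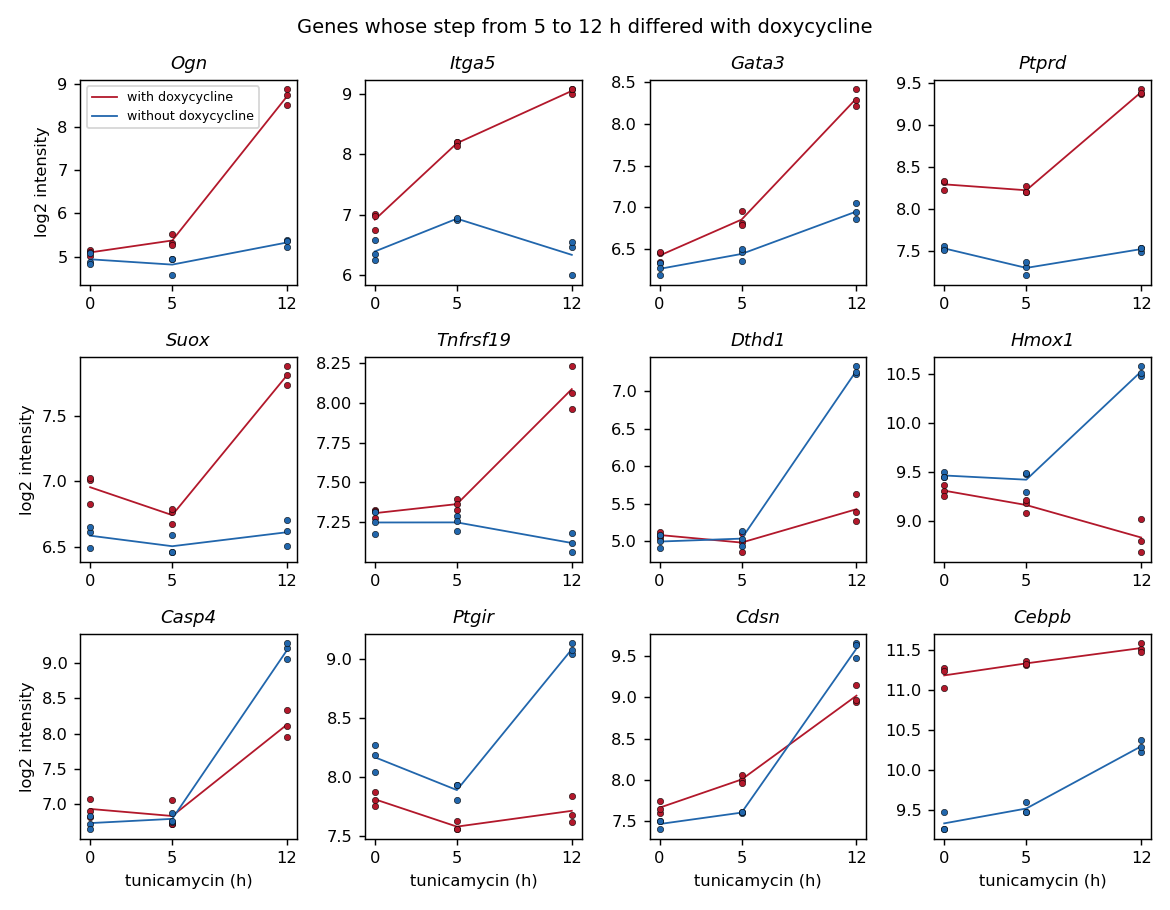
Level (log2 intensity, y axes, each with its own range) against hours of tunicamycin (x axis) for 12 genes whose step from 5 h to 12 h differed, with doxycycline (red) and without it (blue). Points are single arrays and lines join the means of 3. Ogn with doxycycline ends between 8.52 and 8.88 and between 5.23 and 5.39 without it at 12 h, and Hmox1 ends between 8.68 and 9.02 with doxycycline, against 10.48 to 10.57 without.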

How the data were processed

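Total RNA was labelled with biotin and hybridized to Affymetrix arrays, per the labels' protocols, 3 for each of 6 groups. The authors deposited log2 intensities of 35557 probe sets, made with RMA and Partek per the submitters' processing notes, and these were used as they stand. RMA settings and the genome build behind the probe sets are not given in the sources used here. Of the probe sets 21789 carry 1 gene symbol, and the brightest was used where a gene had several, which left 19938 genes (21698 of the Entrez IDs were found in a RefSeq gene table, and 0 symbols changed).

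limma (version 3.58.1, R 4.3.3) was fitted to all 18 arrays with 1 mean per group (12 residual and 5.99 prior degrees of freedom), two-sided, with Benjamini-Hochberg adjustment over all 19938 genes. The contrasts were 12 h minus 5 h with doxycycline, the same without it, and their difference. In simulated data each gene had independent noise, and only 200 of the 19938 genes were changed. There the first contrast recovered 59% of genes changed by 0.3 and 97% of genes changed by 0.6 (log2), and the difference 20% and 85%. In the real data 26.3% of genes passed for the first contrast and arrays were not simulated as related, so these shares do not give the recovery in the real data. The number of arrays limits the precision. The compared groups and the 32 lists were chosen with earlier results of these data known.

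Named genes were the 12 largest rises and falls with the same sign in every experiment, and the 10 most positive and negative differences. Added to these were up to 4 members of a list, and list members that passed for the difference, though not all of them. A few others had steps with opposite signs or are central to the response. In the list of matrix genes and integrins 2 genes passed with a more positive step and 1 with a more negative step. The gene with the more negative step was not named. Predicted genes, small RNAs, receptors and histones (2901 genes) were left out of the naming. Other list members are given by their values. Promoters come from RefSeq (GRCm38.p6), with 125 of 158 named genes matched.

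The series design describes 3 experiments that each held every group, and the titles' replicate numbers were taken as their numbers, which no label states outright. Pairing by number was weak in the data: deviations from the group means of same-numbered arrays had a median r of 0.05 in the 2 compared groups (3 pairs, 0.0251 to 0.0515), against -0.02 for different numbers. Alternatives were that experiment block, only the compared groups, the dimmest 25% of genes left out, repeated quantile normalization, equal array medians, array weights, a robust fit with a variance trend, averaged probe sets, a minimum change of 2-fold, and fits without each array or without each experiment.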

Additional observations from a re-analysis of the deposited data

Results flagged for a closer look

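For 39 of the named genes the step from 5 h to 12 h of tunicamycin differed between cells with and without doxycycline by limma's interaction test, and each difference below is the log2 step with doxycycline minus the step without it. No explanation of these differences was tested, and effects of doxycycline and of LIP cannot be told apart. For Ogn, Cyp4b1, Fibin, Dthd1, Nat8f5 and Lcn2 at least 1 of the means behind the difference lay below the level of silent genes, so that the size of the difference is uncertain. The means of Gsta3 without doxycycline (6.18 at 12 h, 6.08 at 5 h) lay just above that level (6.07), so the same caution holds there.

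More positive steps with doxycycline were those of Ogn (2.83), Itga5 (1.47), Suox (0.96), Ptprd (0.95), Gata3 (0.94), Tnfrsf19 (0.85), Cyp4b1 (0.76), Gsta3 (0.74), Fibin (0.71), Atm (0.66), Etv5 (0.59), Pdia5 (0.45), Mcfd2 (0.35), Abcc4 (0.35), Pdia6 (0.34) and Magt1 (0.31). The step of Etv5 was a fall in both, of 0.82 with doxycycline and of 1.41 without it. Abcc4, a transporter gene, rose by 0.31 with doxycycline, and its step of -0.04 without it did not pass.

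More negative steps with doxycycline were those of Dthd1 (-1.80), Hmox1 (-1.43), Nat8f5 (-1.33), Lcn2 (-1.12), Casp4 (-1.10), Ptgir (-1.06), Cdsn (-0.97), Ano3 (-0.94), Nat8 (-0.93), Isg20 (-0.86), Osmr (-0.82), Gadd45a (-0.65), Nes (-0.63), Aldh1l2 (-0.60), Cebpb (-0.59), Pik3r1 (-0.58), Mfsd9 (-0.58), Phlda1 (-0.57), Mlph (-0.56), Cbx7 (-0.46), Nfe2l1 (-0.38), Filip1l (-0.38) and Pmel (-0.35).

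With groups of 3 arrays no test for single outlying arrays was made.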

How the results depend on the processing

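The count of 5246 genes for the step with doxycycline lay between 4546 (only the compared groups) and 5569 (quantile normalization repeated) under the alternatives that keep all 3 experiments, and at 163 with the 2-fold threshold. It lay between 3333 and 5067 when arrays or experiments were left out. The step without doxycycline, 4983 genes, gave between 3669 (only the compared groups) and 6399 (array weights) with all 3 experiments, 170 with the 2-fold threshold and between 3283 and 4730 with arrays or experiments left out.

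The interaction, 140 genes, was the count that depended most on these choices. It was 234 with array weights, 219 with the variance trend, 66 with only the compared groups and 9 with the 2-fold threshold, and it ranged from 28 to 199 with arrays or experiments left out. The cause was not tested. The last kinds of fit also had fewer arrays, which cannot be told apart from the choice of arrays removed. Of the 39 named genes that passed, 17 passed under all 23 alternatives: Ogn, Itga5, Suox, Ptprd, Gata3, Tnfrsf19, Gsta3, Dthd1, Hmox1, Nat8f5, Lcn2, Casp4, Ptgir, Cdsn, Ano3, Isg20 and Pik3r1. Leaving out 1 experiment, and so 4 of the compared arrays, ended the call of the other 22. Abcc4, Magt1, Mcfd2, Pdia6 and Pmel also missed the threshold with equal medians, and Etv5 and Filip1l with the mean of their probe sets. With only the compared groups those 5 and Etv5, Pdia5, Gadd45a, Nes and Cbx7 missed it.

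With the experiment numbers as a block, a paired fit, the counts were 5360, 5105 and 150. That block ended the call of Nat8f5 for the step with doxycycline (adjusted p = 0.0555 in limma) and no other call among the named genes. Of 152 named genes that passed for that step 141 did so under all 17 alternatives, 11 lost the call in at least 1 and 0 changed direction. The medians of the lists kept their sign except for 20 of 416 values, all in lists with medians between -0.03 and -0.01: translation initiation, cell death, interferon, and markers of leukocytes, endothelial cells and fibroblasts. Setting the array medians equal moved the median of all genes by 0.03.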

Other observations

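The 13768 probe sets with several gene symbols or none were tested apart. With doxycycline 959 of them were higher at 12 h than at 5 h and 416 were lower.

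Of the 1194 receptor genes that stand in for silent genes, 6 were higher and 5 lower at 12 h than at 5 h with doxycycline. Among genes that rose, 41 were still below the 95th percentile of those receptor genes at 12 h, and among genes that fell 65 were already below it at 5 h.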
